A study of Mus musculus with 48 samples.

Results

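Triglyceride is assembled in liver by a short chain of enzymes, and 10 of their genes were followed here across 48 mouse livers measured by RNA-seq: Gpam, Agpat2, Agpat3, Lpin1, Lpin2, Lpin3, Mogat1, Mogat2, Dgat1 and Dgat2. They were taken by gene name from the 29221 genes of the joined count tables, and all 10 were found. All mice were adults that carried floxed Pparg alleles, and after 16 weeks on diet they received an adeno-associated virus with a hepatocyte promoter. The virus was AAV8-TBG-Cre in mice labelled as hepatocyte-specific knockouts and AAV8-TBG-null in controls, so Cre was directed to hepatocytes and the other liver cells of either group were left with their alleles. Both sexes were studied, and since males and females carry separate ranges of animal numbers, sex and any cohort cannot be told apart. Among females, most HFCF animals carry lower numbers than the HF animals, so diet and any cohort cannot be fully told apart there. The low fat (LF) diet was fed to females for 34 weeks, the high fat (HF) diet to either sex for 34 weeks, and in the HFCF groups of either sex the HF diet was replaced after 18 weeks by an HFCF diet (fat, cholesterol and fructose, all high) for the last 16 weeks. Each combination had a control and a labelled knockout group, which gave 10 groups, with 6 livers in each male group and 4 in each female group. Replicate numbers follow the sample titles, and the control HFCF females are numbered 1, 2, 3 and 5.

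The glycerol 3-phosphate route starts when GPAM attaches an acyl chain to glycerol 3-phosphate at the outer mitochondrial membrane. AGPAT enzymes add the next chain to give phosphatidic acid, lipins remove the phosphate to give diacylglycerol, and DGAT1 or DGAT2 adds the last chain. MOGAT1 and MOGAT2 reach diacylglycerol by another way, from monoacylglycerol, a route known best from intestine, and PPARG is a nuclear receptor that switches on fat storage genes in adipocytes and in fatty liver.

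Depth was 15338239 to 22072884 reads on genes per library. No labelled knockout group had a lower mean of Pparg than its control: it was 41.1 CPM (counts scaled to a common library size) against 34.2 in control HF males, 56.3 against 32.3 in HFCF males, 15.4 against 10.4 in LF females, 28.6 against 18.7 in HF females and 45.8 against 23.7 in HFCF females. The edgeR test called Pparg higher in the HFCF males (adjusted p = 0.000805) and the HFCF females (adjusted p = 0.0422). The female call held without labelled knockout replicate 1 and was lost without any 1 of the other 7 libraries (adjusted p up to 0.22) and with the replicate block. In HF males Pparg was called without labelled knockout replicate 6 only, where its log2 fold change went from 0.26 to 0.415 (adjusted p = 0.0189). A count over the whole gene does not show whether the floxed part was read, so the deletion was not checked by it, and the groups are called labelled knockout throughout. Hepatocyte markers were abundant in every library (5 genes summed to 36683 CPM or more), and the adipocyte markers found in the tables (4 of 5) summed to at most 0.411 CPM, with Adipoq at 0 in all male libraries. In whole liver, fewer cells of a type and less RNA per cell cannot be told apart.

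Dgat2 was the most abundant of the 10 genes and Mogat2 the least. Levels between genes are compared as CPM per kilobase of the deposited gene length, averaged over the 10 group means. On that scale Dgat2 stood at 234, Agpat2 at 87.6, Gpam at 58.6, Agpat3 at 43.4, Lpin2 at 29.2, Lpin1 at 11.5, Dgat1 at 8.45, Lpin3 at 2.42, Mogat1 at 1.79 and Mogat2 at 0.295. Dgat2 exceeded Agpat2, and Dgat1 exceeded Lpin3, in 48 of 48 libraries. Other neighbours in that order changed places: Gpam exceeded Agpat3 in 33 libraries, Lpin1 exceeded Dgat1 in 30 and Lpin3 exceeded Mogat1 in 36. The rarest genes varied most between groups, with the highest group mean 12.7 times the lowest for Mogat1 and 7.62 times for Mogat2. Lpin1 (3.86 times) and Gpam (3.72 times) followed, while Agpat3 spanned 1.31 times.

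**Figure D1:**
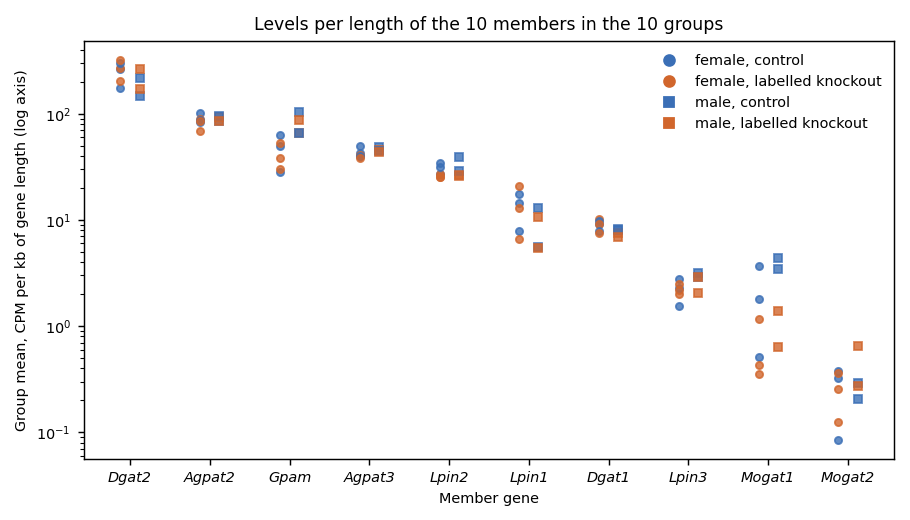
Group means of the 10 genes as CPM per kilobase of gene length on a log axis, ordered by their average over groups. Circles are female groups and squares male groups, blue for controls and orange for labelled knockouts. Dgat2 lies highest (148 to 323), and Mogat1 has the widest spread (0.35 to 4.42).

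The 10 genes lie on 8 chromosomes of GRCm38, by the coordinates of the deposited tables. Gpam spans chr19:55069734-55099451, Agpat2 chr2:26593057-26604417, Agpat3 chr10:78269178-78352489 and Lpin1 chr12:16535669-16610966, all on the minus strand. Lpin2 spans chr17:71182560-71249817 and Lpin3 chr2:160880670-160906002 on the plus strand, and Dgat1 chr15:76502015-76511953 on the minus strand. Dgat2 (chr7:99153658-99182719) and Mogat2 (chr7:99219084-99238619) are neighbours on the minus strand, 36364 bases apart with 0 genes between them. Mogat1 spans chr1:78510991-78538173 on the plus strand and shares 1168 bases with BC035947 on the other strand, which had 0 to 25 reads per library against 0 to 167 for Mogat1. Because the libraries were not strand specific, reads in that stretch cannot be assigned by strand. The other overlaps were with genes of few reads, except that Agpat2 shares 64 bases with Egfl7. Gm26561, with 0 to 2 reads per library, shares 67258 bases with Lpin2 on the same strand. The counts do not show how reads in that stretch were assigned.

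Mogat1, Gpam and Lpin2 were the members called lower with no overlap in labelled knockout HF males. Lpin1 was called lower in all 5 fitted comparisons of HFCF with HF or LF. These genes are shown by the RefSeq sequence (GRCm38.p6) of the 250 bases before a start site, so that it can be read beside those changes. Of the 14 pairwise comparisons, Mogat1 and Dgat2 were called in 7 each, Lpin1 in 5, Gpam in 4, Lpin3 in 3 and Lpin2 in 2. Dgat1 was called in as many as Lpin2, Agpat3 and Mogat2 in fewer, and Agpat2 in none. RefSeq promoter windows were matched for 7 of the 10 genes (11 start sites). Each window also includes 50 bases after the start, which were searched but are not printed. On both strands 4 motifs were searched: the PPAR response element (AGGTCA repeated after 1 spacer base N), AGGTCA alone, the nuclear receptor site that lies in it, CACGTG, an E-box that clock proteins bind, and TCACCCCAC, a sterol response element. Capitals mark matches, and the sequences run 5′ to 3′ on the strand of the gene.
Mogat1, chr1:78510810-78511059, plus strand: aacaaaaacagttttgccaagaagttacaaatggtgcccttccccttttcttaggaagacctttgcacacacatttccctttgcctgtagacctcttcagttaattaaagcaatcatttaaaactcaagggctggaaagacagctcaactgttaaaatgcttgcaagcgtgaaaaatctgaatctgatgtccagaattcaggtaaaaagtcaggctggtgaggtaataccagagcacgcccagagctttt
Gpam, chr19:55099478-55099727, minus strand: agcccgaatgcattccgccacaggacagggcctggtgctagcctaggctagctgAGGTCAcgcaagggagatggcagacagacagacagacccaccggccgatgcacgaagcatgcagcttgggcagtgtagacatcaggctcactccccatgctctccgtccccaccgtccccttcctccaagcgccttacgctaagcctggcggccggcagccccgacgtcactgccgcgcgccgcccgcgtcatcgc
Lpin1, chr12:16610967-16611216, minus strand: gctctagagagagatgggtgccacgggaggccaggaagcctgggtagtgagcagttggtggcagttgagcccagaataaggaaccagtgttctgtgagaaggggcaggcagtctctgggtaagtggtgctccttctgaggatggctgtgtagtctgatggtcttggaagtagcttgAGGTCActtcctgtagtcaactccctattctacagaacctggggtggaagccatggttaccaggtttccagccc
Lpin2, chr17:71183282-71183531, plus strand: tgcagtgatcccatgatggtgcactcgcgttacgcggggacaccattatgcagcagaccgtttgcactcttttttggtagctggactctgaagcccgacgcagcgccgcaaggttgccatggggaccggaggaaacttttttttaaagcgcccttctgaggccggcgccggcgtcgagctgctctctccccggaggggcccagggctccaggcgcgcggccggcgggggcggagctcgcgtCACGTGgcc
Gpam held AGGTCA at position -196 from the printed start and Lpin1 at position -74. Lpin2 held CACGTG at -9 from the printed start, and Lpin3 held it at 23 after a start that is not printed. Gpam, Lpin2 and Lpin3 have further start sites, and the windows there held none of the 4 motifs. Of 32851 promoter windows of the same length, 16.3% held AGGTCA, 7.15% held CACGTG, 0.551% held TCACCCCAC and 0.0396% held the PPAR response element. The window of Mogat1 held none of the 4 motifs as spelled, which says only that these letters are not in it. Promoters of Mogat2, Dgat1 and Dgat2 were not matched.

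Of the 5 comparisons of labelled knockout with control, only that in HF males called more than 1 of the 10 genes. A gene is called where the Benjamini-Hochberg adjusted p of edgeR's quasi-likelihood test, over all genes tested, is under 0.05. In HF males 5 of 9 tested were called, 4 lower and 1 higher, where 18.5% of all 14041 tested genes were called (9.88% lower and 8.57% higher). The median log2 fold change of the 9 was -0.28 against 0.0002 for all genes. In HFCF males 1 of 10 was called, beside 2.21% of all genes, and in HFCF females 1 of 10, beside 0.0534%. In LF females 0 of 9 were called (0% of all genes; 1 at an unadjusted p under 0.05, and 0 with DESeq2). In HF females 0 of 9 were called (0% of all genes; 3 at an unadjusted p under 0.05, and 1 with DESeq2). The median log2 fold change of the 9 in HF females was -0.29, against 0.0062 for all genes. There 8 of the 9 were negative, and 7 of 9 in HF males. Member medians were 0.045 in LF females, -0.08 in HFCF males and -0.09 in HFCF females. Mogat2 had too few reads to be tested in 7 of the 14 pairwise comparisons.

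Dgat2 and Lpin1 were called lower in all 5 fitted comparisons of HFCF with HF or LF. The share of all genes called lower in all 5 was not counted. HFCF against LF in labelled knockout females was not fitted. In those groups Dgat2 overlapped, at 514 to 876 CPM on HFCF and 706 to 901 CPM on LF. Lpin1 overlapped there too, at 40.3 to 89.2 CPM on HFCF and 87.7 to 363 CPM on LF. Against HF, the HFCF diet called 4 of 10 in control females (30.8% of all genes), 3 of 10 in labelled knockout females (14.5%), 4 of 9 in control males (22.3%) and 5 of 10 in labelled knockout males (41.7%). Against LF, HFCF called 5 of 9 in control females (35.2%). The HF diet against LF called 0 of 9 in control females (0.696% of all genes) and 0 of 9 in labelled knockout females (0.155%), with 3 and 2 of them at an unadjusted p under 0.05 and 1 each with DESeq2. Control males against control females called 4 of 10 on HF (18.1%) and 0 of 10 on HFCF (2.63%; 1 at an unadjusted p under 0.05, 0 with DESeq2). These shares among the members were read against all genes as description, and comparisons that use the same group share its libraries.

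**Figure D2:**
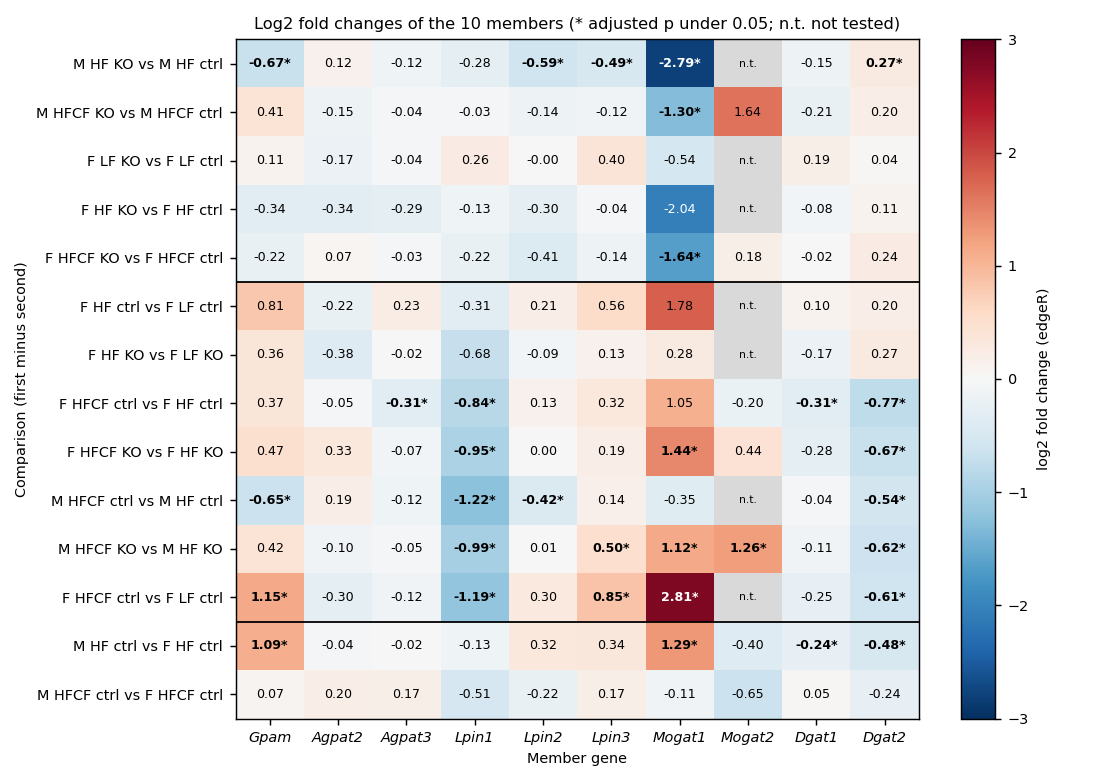
Log2 fold changes from edgeR for the 10 genes (columns) in 14 pairwise comparisons (rows, first group minus second), with red higher and blue lower in the first group. An asterisk marks an adjusted p under 0.05 and n.t. a gene with too few reads to test. The Mogat1 column is negative in all 5 upper rows, and the Lpin1 and Dgat2 columns are negative and called in the 5 rows that compare HFCF with HF or LF.

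Mogat1, which makes diacylglycerol from monoacylglycerol, was lower in the labelled knockouts on HF and on HFCF. In control HF males it ranged from 4.42 to 8.9 CPM (median 6.84), and in labelled knockout HF males from 0 to 1.38 CPM (median 1.14). These groups did not overlap, the control mean was 6.98 times the other, and the log2 fold change was -2.79 (SE 0.335, adjusted p = 4.58e-05, edgeR). The library at 0 was replicate 6, and without it the log2 fold change was -2.53.

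In HFCF males Mogat1 ranged from 3.69 to 10.2 CPM (median 4.5) in controls and from 1.6 to 2.58 CPM (median 2.21) in labelled knockouts. The groups again did not overlap, with replicate 1 of the controls far above the other 5 at 10.2 CPM. The log2 fold change was -1.30 (SE 0.238, adjusted p = 0.00922, edgeR), and -1.03 without that control. Mogat1 stayed called in all 12 fits that left out 1 library in HF males and in all 12 in HFCF males.

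In control HFCF females the 4 libraries stood at 7.28, 3.68, 6.87 and 5.34 CPM of Mogat1, and in labelled knockouts at 1.81, 1.89, 1.63 and 1.95. All 4 labelled knockouts were below all 4 controls. The log2 fold change was -1.64 (SE 0.237, adjusted p = 0.0494, edgeR). That call held without control replicate 2 or labelled knockout replicate 1 and was lost without any 1 of the other 6 libraries, with adjusted p up to 0.223 and log2 fold changes from -1.81 to -1.52.

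In control HF females Mogat1 stood at 5.89, 1.43, 2.38 and 1.49 CPM, and in labelled knockouts at 0.752, 0.927, 0.577 and 0.419. The groups did not overlap, and control replicate 1 lay far above the rest. The log2 fold change of -2.04 (SE 0.515) was not called by edgeR (adjusted p = 0.522) but was called by DESeq2, and it was -1.37 without control replicate 1.

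In LF females Mogat1 was low in either group, at 0.461, 0.39, 0.722 and 1.63 CPM in controls and 0.531, 0.134, 0.858 and 0.656 CPM in labelled knockouts. These groups overlapped, and the log2 fold change was -0.54 (SE 0.574, adjusted p = 1, edgeR). At 2 to 30 reads per library, neither a difference nor its absence was shown. Leaving out 1 library, the value ran from -0.83 (without labelled knockout replicate 3) to 0.075 (without control replicate 4). The differences between sexes in the labelled knockout effect on Mogat1 were -0.74 on HF (SE 0.679, adjusted p = 0.702, edgeR) and 0.34 on HFCF (SE 0.36, adjusted p = 0.782), male minus female. The first was -0.49 without labelled knockout HF male replicate 6 and -1.41 without control HF female replicate 1, and the second 0.62 without control HFCF male replicate 1, with none called.

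The effect on Mogat1 in males was smaller on HFCF than on HF by 1.47 on the log2 scale (SE 0.439), which was not called (adjusted p = 0.0785, edgeR). It was called without labelled knockout HF replicate 6 (1.22, adjusted p = 0.049) or without control HFCF replicate 1 (1.75, adjusted p = 0.0181).

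Among controls, Mogat1 was higher in HFCF than in LF females, with a log2 fold change of 2.81 (SE 0.404, adjusted p = 0.00111, edgeR) and no overlap. Between HFCF and HF control females the value was 1.055 (SE 0.446, adjusted p = 0.0963), and without HF control replicate 1 it was 1.73 (adjusted p = 0.00141). Between HFCF and HF control males it was -0.35 (SE 0.228, adjusted p = 0.285), and without HFCF control replicate 1 it was -0.63 (adjusted p = 0.00529). In labelled knockouts Mogat1 was higher on HFCF than on HF, by 1.125 in males (SE 0.38, adjusted p = 0.0265) and 1.44 in females (SE 0.304, adjusted p = 0.0139), with no overlap in either sex. The male call was lost without labelled knockout HFCF replicate 1 or 5 (adjusted p up to 0.0534) and the female call without labelled knockout HFCF replicate 4 (adjusted p = 0.0501).

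Control HF males had more Mogat1 than control HF females (log2 fold change 1.29, SE 0.361, adjusted p = 0.0285, edgeR), but female replicate 1 overlapped the males. Without that female the value was 1.97 (adjusted p = 9.64e-05). The call was lost without male replicate 1, 3 or 5 or female replicate 2, 3 or 4, with adjusted p up to 0.0876. On HFCF the control sexes overlapped (log2 fold change -0.11, SE 0.283, adjusted p = 0.902).

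**Figure D3:**
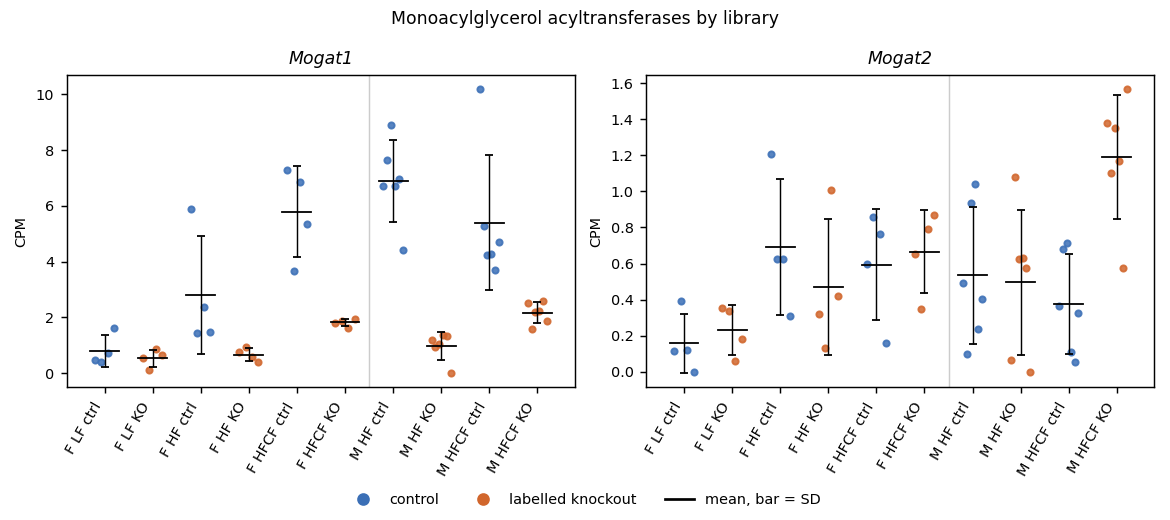
CPM of Mogat1 and Mogat2 in every library (points) by sex (F, M), diet and group, blue for controls (ctrl) and orange for labelled knockouts (KO), with the group mean and SD in black. Mogat1 of labelled knockouts lies at 2.58 CPM or less in all groups, and Mogat2 reaches at most 1.57 CPM in any library.

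The genes whose log2 CPM followed that of Mogat1 most closely over the 48 libraries were Lgals1, which encodes galectin-1 (Pearson r = 0.914), Clstn3, a calsyntenin gene (r = 0.905), and Pyroxd2 (r = 0.88), among 12337 genes compared. Over deviations from the group means the values were 0.665, 0.582 and 0.642. The 48 points share groups, library depth and composition, so these are descriptions. Mean CPM of Lgals1 was 97.7 in control and 27.7 in labelled knockout HF males, and that of Clstn3 was 56.7 and 11.3.

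Mogat2, the form known from intestine, was near the limit of detection, with 0 to 31 reads per library. In HFCF males it ranged from 0.0513 to 0.714 CPM (median 0.346) in controls and from 0.574 to 1.57 CPM (median 1.26) in labelled knockouts. The groups overlapped at labelled knockout replicate 5 only, and the log2 fold change of 1.64 (SE 0.422) was not called (adjusted p = 0.0593, edgeR). DESeq2 called it, as did edgeR without control replicate 1 (1.63, adjusted p = 0.0391).

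Labelled knockout males had more Mogat2 on HFCF than on HF, where it ranged from 0 to 1.08 CPM (median 0.6). The log2 fold change was 1.26 (SE 0.485, adjusted p = 0.0479, edgeR), and the call held only without HF replicate 2 or HFCF replicate 5, with adjusted p up to 0.0904 otherwise. Among intestinal markers Vil1 was also called higher in that comparison (log2 fold change 1.99, SE 0.532, adjusted p = 0.00737), Lct averaged at most 0.104 CPM in any group, and the summed markers (3 of 5 in the tables) ran from 93.9 to 144 CPM on HF and from 106 to 150 CPM on HFCF, nearly all from Fabp2. Vil1 was also called higher on HFCF than on HF in control females (2.14) and labelled knockout females (1.68), where Mogat2 was not called (-0.20 and 0.44), and on HFCF against LF (1.67), where Mogat2 was not tested. Their part in the Mogat2 result was not tested. In females Mogat2 was at 0 to 1.21 CPM, and the labelled knockout groups overlapped their controls on all 3 diets.

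Gpam, which encodes the mitochondrial enzyme of the first acylation, was lower in labelled knockouts on HF in males but not on HFCF. In HF males it ranged from 349 to 469 CPM (median 392) in controls and from 213 to 292 CPM (median 248) in labelled knockouts. The groups did not overlap, and the log2 fold change was -0.67 (SE 0.084, adjusted p = 6.76e-05, edgeR), with the call kept in all 12 fits that left out 1 library.

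In HFCF males Gpam ranged from 157 to 327 CPM (median 266) in controls and from 215 to 495 CPM (median 301) in labelled knockouts. These groups overlapped, and the log2 fold change was 0.41 (SE 0.214, adjusted p = 0.413, edgeR). The effect on HFCF minus that on HF was 1.07 in log2 units (SE 0.244, adjusted p = 0.0255, edgeR). Gpam was the only 1 of the 10 genes called for it (1.56% of all 15096 genes tested), and the call was kept in all 24 fits that left out 1 library but lost when all 10 groups were fitted together (log2 value 1.08, adjusted p = 0.183).

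In female groups Gpam of labelled knockouts overlapped that of controls on all 3 diets. The log2 fold changes were 0.11 on LF (SE 0.24), -0.34 on HF (SE 0.344) and -0.22 on HFCF (SE 0.228), with adjusted p of 1, 0.833 and 0.731 (edgeR). Without control replicate 1, at 325 CPM, the HF value was 0.07 (adjusted p = 0.95), and leaving out 1 library the HFCF value ran from -0.39 (without labelled knockout replicate 2) to -0.044 (without labelled knockout replicate 1). The labelled knockout effects of males and females differed by -0.33 on HF (SE 0.318, adjusted p = 0.721) and 0.64 on HFCF (SE 0.342, adjusted p = 0.556), male minus female. Leaving out 1 library, the HF value ran from -0.73 (without control HF female replicate 1, adjusted p = 0.11) to -0.12 (without control HF female replicate 2).

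Gpam also differed with diet in controls. In control males it was lower on HFCF than on HF (log2 fold change -0.65, SE 0.142, adjusted p = 0.00556, edgeR), with no overlap. In control females it was higher on HFCF than on LF, from 79.9, 148, 106 and 95.8 CPM to 283, 226, 190 and 263 CPM, with no overlap (log2 fold change 1.15, SE 0.184, adjusted p = 0.00167). Whether diet effects differed between the sexes was not tested.

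On HF, control females had 325, 101, 168 and 160 CPM of Gpam, all below the control males. The male to female log2 fold change was 1.09 (SE 0.247, adjusted p = 0.0113, edgeR), and 1.49 without female replicate 1. On HFCF the control sexes overlapped (0.07, SE 0.181, adjusted p = 0.899). Between HFCF and HF control females the value was 0.37 (SE 0.306, adjusted p = 0.376), and without HF replicate 1 it was 0.78 (adjusted p = 0.00763). Between HFCF and HF labelled knockout males it was 0.42 (SE 0.176, adjusted p = 0.0674), called without HFCF replicate 2 or 5 (adjusted p as low as 0.0191).

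Agpat2 and Agpat3, whose enzymes act on lysophosphatidic acid and other lysophospholipids, were called in only 1 of the 14 pairwise comparisons between them. Agpat3 was lower on HFCF than on HF in control females, at 328, 301, 310 and 296 CPM against 378, 396, 370 and 413 CPM. The groups did not overlap (log2 fold change -0.31, SE 0.075, adjusted p = 0.0151, edgeR). The call was kept in all 8 fits that left out 1 library but lost with the replicate block. In control males the same comparison gave -0.12 (SE 0.062, adjusted p = 0.168), called without HFCF control replicate 1 (-0.16, adjusted p = 0.0228).

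Agpat3 of HF females was 330, 342, 236 and 348 CPM in labelled knockouts, all below the controls, and the log2 fold change of -0.29 (SE 0.114) was not called (adjusted p = 0.605, edgeR). Group means of Agpat3 ran from 297 to 389 CPM. Agpat2, whose loss causes lipodystrophy in people and mice, had group means from 146 to 216 CPM, the lowest in labelled knockout HF females at 165, 152, 132 and 134 CPM. These lay below the LF labelled knockout females at 187, 182, 219 and 173 CPM, and the log2 fold change of -0.38 (SE 0.104) was not called by edgeR (adjusted p = 0.149) but was by DESeq2. The labelled knockout effect on Agpat2 in HF mice differed between the sexes by 0.47 (SE 0.138, adjusted p = 0.319), male minus female, and by 0.59 without control HF female replicate 1 (adjusted p = 0.0128).

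**Figure D4:**
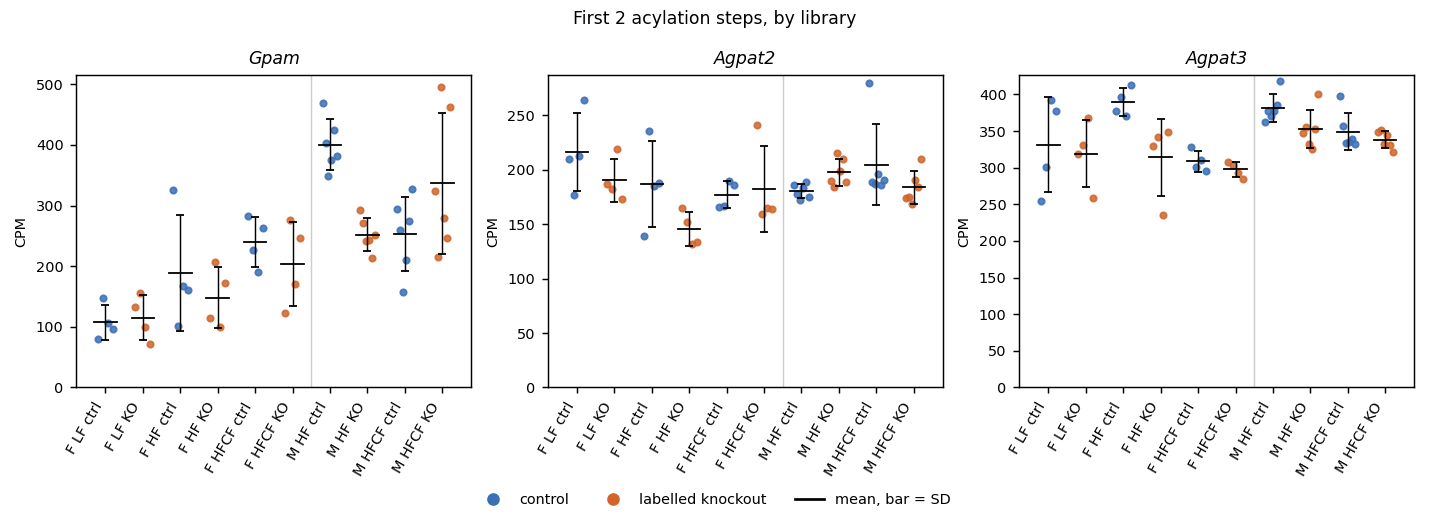
CPM of Gpam, Agpat2 and Agpat3 in every library (points) by sex (F, M), diet and group, blue for controls (ctrl) and orange for labelled knockouts (KO), with the group mean and SD in black. Gpam of control HF males (349 to 469 CPM) lies above that of labelled knockout HF males (213 to 292 CPM), while Agpat2 and Agpat3 vary little between groups.

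The lipins remove phosphate from phosphatidic acid, and LPIN1 also acts in the nucleus as a coactivator. Lpin2 made up most of the lipin RNA of every group per length, from 56.2% in labelled knockout LF females to 77.2% in control HFCF males. The share of Lpin1 was 36.3% ± 7.17 (SD, n = 4) in control LF females, 30% ± 6.55 (n = 4) in control HF females and 17.3% ± 3.29 (n = 4) in control HFCF females. In control males it was 23.3% ± 3.18 (n = 6) on HF and 14.3% ± 2.79 (n = 6) on HFCF. Lpin3 held 3.73% to 8.48% of the lipin RNA by group mean.

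Lpin2, the main lipin of liver, was lower in labelled knockout HF males, at 257 to 368 CPM (median 330) against 437 to 524 CPM (median 479) in controls. The groups did not overlap, the log2 fold change was -0.59 (SE 0.082, adjusted p = 0.000162, edgeR), and the call was kept in all 12 fits that left out 1 library. In HFCF males the groups overlapped (-0.14, SE 0.116, adjusted p = 0.64). In HFCF females the labelled knockouts, at 189, 359, 356 and 331 CPM, reached no higher than the lowest control among 476, 406, 359 and 428, and the log2 fold change of -0.41 (SE 0.189) was not called (adjusted p = 0.556, edgeR). Without labelled knockout replicate 1, at 189 CPM, it was -0.24. The difference of the effects on Lpin2 between HFCF and HF males was 0.43 (SE 0.148, adjusted p = 0.12, edgeR).

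Lpin2 of control males was also lower on HFCF than on HF (log2 fold change -0.42, SE 0.104, adjusted p = 0.0105, edgeR), with overlap, since 1 HFCF library reached 455 CPM. In labelled knockout males the means were 322 and 321 CPM (log2 fold change 0.01, SE 0.096, adjusted p = 0.944). Control HF males had 1.25 times the mean of control HF females (0.32, SE 0.106, adjusted p = 0.0542), called without female replicate 1 (0.44, adjusted p = 0.00224).

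Lpin3, the rarest lipin, was lower in labelled knockout HF males, at 4.68 to 10.5 CPM (median 7.55) against 8.27 to 12.7 CPM (median 10.4). The groups overlapped, and the log2 fold change was -0.49 (SE 0.16, adjusted p = 0.0443, edgeR). The call held without control replicate 2 or labelled knockout replicate 4 and was lost without any 1 of the other 10 libraries (adjusted p up to 0.105). On HFCF, Lpin3 of labelled knockout males was higher than on HF (0.50, SE 0.152, adjusted p = 0.0159), and that call was kept in all 12 fits that left out 1 library.

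In control females Lpin3 was 4.78, 4.68, 7.1 and 6.21 CPM on LF, 10.7, 8.22, 7.89 and 6.76 CPM on HF and 9.87, 10.3, 8.86 and 12.3 CPM on HFCF. HFCF exceeded LF with no overlap (log2 fold change 0.85, SE 0.165, adjusted p = 0.00402, edgeR), a call lost with the replicate block. Between HF and LF the value was 0.56 (SE 0.198, adjusted p = 0.212), and between HFCF and HF it was 0.32 (SE 0.169, adjusted p = 0.173), or 0.465 without HF replicate 1 (adjusted p = 0.0293).

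Lpin1 was lower on HFCF in all 5 fitted comparisons with HF or LF. In control males it ranged from 97.3 to 160 CPM (median 123) on HF and from 35.9 to 92.5 CPM (median 47.6) on HFCF. These groups did not overlap, and the log2 fold change was -1.22 (SE 0.195, adjusted p = 0.00146, edgeR). In labelled knockout males it ranged from 67 to 129 CPM (median 112) on HF and from 35.5 to 74.9 CPM (median 48.5) on HFCF. These overlapped, with a log2 fold change of -0.99 (SE 0.179, adjusted p = 0.000473, edgeR). In males the calls were kept in all 12 fits of each comparison that left out 1 library.

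In control females Lpin1 was 279, 193, 101 and 104 CPM on LF, 127, 148, 116 and 161 CPM on HF and 89.9, 62.4, 50.4 and 101 CPM on HFCF. HFCF lay below HF with no overlap (log2 fold change -0.84, SE 0.203, adjusted p = 0.0157, edgeR, kept in all 8 fits that left out 1 library). That call was lost with the replicate block. Against LF the log2 fold change was -1.19 (SE 0.346, adjusted p = 0.0232), with the groups meeting near 101 CPM, and the call was lost without LF replicate 2 or HFCF replicate 2 or 3 (adjusted p up to 0.0742). In labelled knockout females Lpin1 was 95.6, 190, 87.3 and 128 CPM on HF and 40.3, 59.4, 67.5 and 89.2 CPM on HFCF. The log2 fold change was -0.95 (SE 0.277, adjusted p = 0.0454), and the call held only without HF replicate 3 or HFCF replicate 1 or 4 (adjusted p up to 0.116 otherwise). No labelled knockout comparison called Lpin1, and its log2 fold changes there ran from -0.28 to 0.26.

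LF females varied most in Lpin1, from 87.7 to 363 CPM over the 8 libraries of both groups. Lpin1 is known to respond to fasting and glucocorticoids and to oscillate over the day, so genes of both kinds are given beside it. Of 7 clock genes, Arntl and Npas2 were called higher and Ciart and Per2 lower on HFCF than on HF in both sexes of controls and labelled knockouts. None of these 4 was called on HFCF against LF in control females, where Lpin1 was called and Nr1d1 was the 1 clock gene called (-0.49). On HF against LF in control females Arntl (-1.79) and Npas2 (-2.44) were called lower and Per2 (0.875) higher, while Lpin1 was not called. Ciart, a repressor of the clock, had a log2 fold change of -1.30 in control males (SE 0.329, adjusted p = 0.012), and its mean fell from 18.6 to 4.04 CPM in control females. Of 8 fasting-responsive genes, Fkbp5, a glucocorticoid-induced gene, was called lower on HFCF than on HF in all 4 comparisons, with log2 fold changes from -0.585 to -0.92, and on HFCF against LF (-1.175). Tsc22d3 was called lower than on HF in control females (-0.634), labelled knockout females (-0.634) and labelled knockout males (-0.972). Pck1 was called lower in labelled knockout females (-0.79) and males (-1.215), and Ppargc1a in control males (-0.441). Others went the other way: the leptin receptor gene Lepr was called higher on HFCF than on HF in control females (1.08), control males (0.99) and labelled knockout males (0.76). Igfbp1 was called higher in control females (1.07). Against LF in control females, 5 of the 8 were called lower and 0 higher, with a median of -0.948. Beside Fkbp5 these were Lepr (-1.727), G6pc (-1.468), Pck1 (-1.199) and Tsc22d3 (-0.722). Against HF, the median of the 8 was -0.36 in control females, -0.185 in control males, 0.004 in labelled knockout females and -0.03 in labelled knockout males. Summed CPM of the 8 genes was 2930 to 7180 in control LF females, 2108 to 2905 in control HF females and 1519 to 2130 in control HFCF females. The part of these genes in the Lpin1 result was not tested.

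DGAT2 and DGAT1 add the last acyl chain, DGAT2 mainly to newly made diacylglycerol. Dgat2 fell on HFCF. In control males it ranged from 601 to 741 CPM (median 664) on HF and from 378 to 580 CPM (median 453) on HFCF, and in labelled knockout males from 684 to 941 CPM (median 790) and from 435 to 628 CPM (median 523). Neither pair overlapped. The log2 fold changes were -0.54 (SE 0.094, adjusted p = 0.00203) and -0.62 (SE 0.097, adjusted p = 0.000152, edgeR), each called in all 12 fits that left out 1 library.

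In control females Dgat2 was 750, 929, 785 and 788 CPM on LF, 795, 949, 957 and 1039 CPM on HF and 570, 511, 624 and 455 CPM on HFCF. HFCF lay below both other diets with no overlap. The log2 fold changes were -0.77 against HF (SE 0.123, adjusted p = 0.00561, edgeR) and -0.61 against LF (SE 0.127, adjusted p = 0.00545), kept in all 8 fits of each that left out 1 library. Both calls were lost with the replicate block. In labelled knockout females Dgat2 was 1035, 1011, 897 and 1045 CPM on HF and 876, 514, 565 and 542 CPM on HFCF, again with no overlap. There the log2 fold change was -0.67 (SE 0.17, adjusted p = 0.0275), and without HFCF replicate 1, at 876 CPM, it was -0.87 (adjusted p = 0.000382). That call also held without HF replicate 3 and was lost without any 1 of the other 6 libraries (adjusted p up to 0.0863).

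Markers of several liver cell types moved with the HFCF diet. Of 5 hepatocyte markers, 5 were called lower on HFCF than on HF in labelled knockout males (median log2 fold change -0.76), 3 in control males (-0.42), 4 in control females (-0.68) and 0 in labelled knockout females (-0.50, 3 at an unadjusted p under 0.05, edgeR), and 5 were lower on HFCF than on LF (-0.70). Their summed level ran from 58640 to 81991 CPM in control males on HF and from 36683 to 59527 CPM on HFCF. Of 6 macrophage markers, 4 were called higher in each of these comparisons except labelled knockout females, with 3, and the widest differences were in Gpnmb (2.69 to 5.53) and Trem2 (1.89 to 3.12), known from lipid-laden macrophages. Timd4, a marker of resident Kupffer cells, was called lower in labelled knockout males (-1.18). Summed macrophage markers ran from 98.6 to 184 CPM in control males on HF and from 174 to 349 CPM on HFCF, and from 140 to 227 CPM and 318 to 379 CPM in control females. Of 4 stellate cell markers, 3 were called higher against HF in either male group and against LF, 4 in labelled knockout females and 1 in control females. Their summed level ran from 297 to 419 CPM in control males on HF and from 331 to 658 CPM on HFCF, and from 146 to 494 CPM and 463 to 732 CPM in control females. No marker of these 3 lists was at 0 in a whole group. Of 3 haemoglobin genes, 3 were called lower on HFCF than on HF in labelled knockout males (median log2 fold change -1.543). In the other comparisons of HFCF with HF or LF 0 of them were called. The part of cell makeup and blood in the diet results was not tested.

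Dgat2 was the 1 gene called higher in labelled knockout HF males (log2 fold change 0.27, SE 0.088, adjusted p = 0.0463, edgeR), with overlap. Without labelled knockout replicate 6 the value was 0.22 (adjusted p = 0.0873). The call was also lost without control replicate 1, 2, 4 or 5 or labelled knockout replicate 3 or 5 (adjusted p up to 0.105). All 5 hepatocyte markers were called higher in the same comparison (median log2 fold change 0.40), and of 3 haemoglobin genes 2 were, with summed medians of 287 CPM in labelled knockouts and 113 CPM in controls. Of 6 macrophage markers Gpnmb (-1.76) and Trem2 (-1.09) were called lower and Clec4f, a Kupffer cell marker, higher (0.56), and of 4 stellate cell markers Col1a1 (-1.23) and Dcn (-0.29) were called lower. Summed levels ran from 128 to 209 CPM in labelled knockouts and 98.6 to 184 CPM in controls for macrophages, and from 211 to 285 CPM and 297 to 419 CPM for stellate cells. Of the 8 fasting-responsive genes Tsc22d3 was called higher (1.035) and Igfbp1 lower (-0.624), with a median of -0.037 and 5 at an unadjusted p under 0.05 (edgeR). Of the 7 clock genes Nr1d1 was called higher (0.357), and the 7 log2 fold changes ran from 0.159 to 0.428. The part of all these genes in the results of labelled knockout HF males was not tested. The other Dgat2 comparisons with control gave 0.20 in HFCF males, 0.045 in LF females, 0.11 in HF females and 0.24 in HFCF females, with none called. Without control replicate 1 the HF female value was 0.046, and without labelled knockout replicate 1 the HFCF female value was 0.015.

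Control HF males had less Dgat2 than control HF females (log2 fold change -0.48, SE 0.09, adjusted p = 0.00449, edgeR), with no overlap, and the call was kept in all 10 fits that left out 1 library. Dgat1 was lower there too (-0.24, SE 0.069, adjusted p = 0.0347), from 23.1 to 27.3 CPM in males against 28, 33.1, 29.2 and 29.6 CPM in females. The Dgat1 call was lost without male replicate 2, 4 or 6 or female replicate 2, 3 or 4 (adjusted p up to 0.133). On HFCF neither gene was called between the control sexes.

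Dgat1 was lower on HFCF than on HF in control females, at 24.6, 21.9, 25.5 and 23.3 CPM on HFCF. These lay below the HF values above with no overlap (log2 fold change -0.31, SE 0.081, adjusted p = 0.0204, edgeR). The call was lost without HF replicate 2 or HFCF replicate 1, 2 or 5 (adjusted p up to 0.059), and with the replicate block. The same comparison in control males gave -0.04 (SE 0.086, adjusted p = 0.805). In no labelled knockout comparison was Dgat1 called, and its log2 fold changes there ran from -0.21 to 0.19.

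The ratio of Dgat2 to Dgat1 per length was 18.5 ± 1.71 (SD, n = 6) in control HFCF males and 26.3 ± 3.53 (n = 6) in control HF males. In control females it was 29.9 ± 8.32 (n = 4) on LF, 31 ± 3.2 (n = 4) on HF and 22.5 ± 2.13 (n = 4) on HFCF. In labelled knockouts it was 35.3 ± 5.96 (n = 6) in HF males and 35.3 ± 2.51 (n = 4) in HF females, the highest group means.

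**Figure D5:**
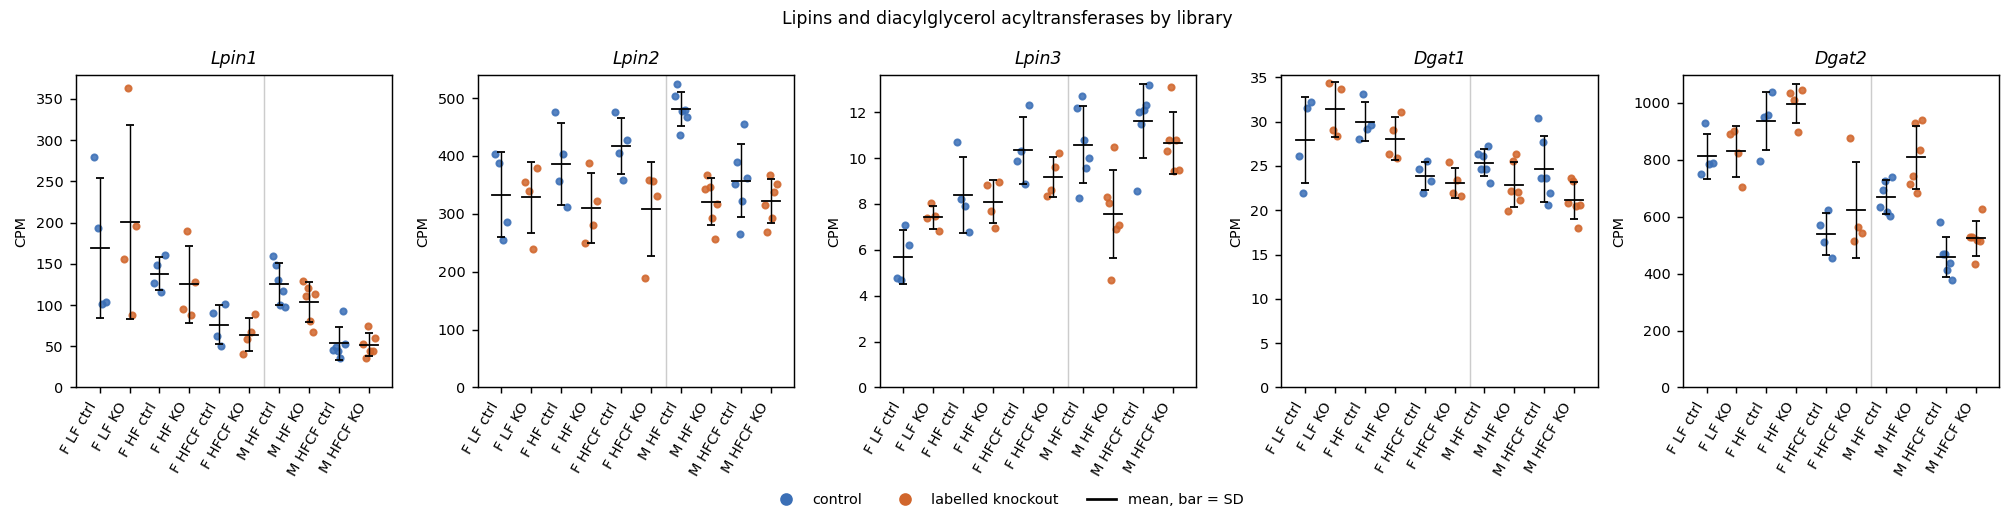
CPM of Lpin1, Lpin2, Lpin3, Dgat1 and Dgat2 in every library (points) by sex (F, M), diet and group, blue for controls (ctrl) and orange for labelled knockouts (KO), with the group mean and SD in black. Lpin1 and Dgat2 are lowest in the HFCF groups, and Lpin2 of control HF males (437 to 524 CPM) lies above that of labelled knockout HF males (257 to 368 CPM).

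Other genes of glycerolipid synthesis were followed from a list of 21, of which 20 were tested in each comparison. In labelled knockout HF males 5 of 20 were called (18.5% of all genes), all lower: Plpp2, a lipid phosphate phosphatase gene (log2 fold change -0.68), Gpd1, which makes glycerol 3-phosphate (-0.60), Gpat3, an acyltransferase of the endoplasmic reticulum (-0.55), and the acyl-CoA synthetase genes Acsl4 (-0.37) and Acsl5 (-0.31). In HFCF males 2 of 20 were called (2.21% of all genes), Gpd1 (-0.67) and Gpat3 (-0.58), both lower. In females 0 of 20 were called on LF (0% of all genes), on HF (0%) and on HFCF (0.0534%). At an unadjusted p under 0.05 (edgeR) there were 0 on LF, 2 on HF and 5 on HFCF. The median log2 fold change of the 20 was -0.04 in HF males and -0.03 in HFCF males.

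On HFCF against HF, Acsl1, the main acyl-CoA synthetase gene of liver, was called lower in all 4 comparisons, with log2 fold changes of -0.48 in control males (SE 0.148, adjusted p = 0.0316), -0.56 in labelled knockout males, -0.59 in control females and -0.61 in labelled knockout females (edgeR). Plpp3, another lipid phosphate phosphatase gene, was called lower in 3 of them, with log2 fold changes of -0.40 in control males, -0.71 in control females and -0.80 in labelled knockout females. Agpat4 was called higher in control males (0.63) and control females (1.12). In all, 5 of 20 were called in control females (30.8% of all genes), 4 in labelled knockout females (14.5%), 7 in control males (22.3%) and 9 in labelled knockout males (41.7%).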

How the data were processed

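Whole-liver RNA of 48 mice was sequenced from libraries that were not strand specific, per the labels' protocols. Reads were counted per gene by the authors, and the deposited counts are whole numbers with no normalization, per the file headers. STAR 2.6.1, HTSeq 0.6.1, DESeq2 and the build GRCm38 are named in the submitters' processing notes without a role. The deposited tables also hold a normalized signal, found to be each count over a constant of its library, and FPKM, which per the file headers are scaled by gene length. The authors' FPKM equalled reads per kilobase scaled by depth only up to a factor of 0.8416 to 1.111 per library, so neither was used. Other deposited columns, such as the authors' fold changes and annotation, served for names, positions and gene lengths only.

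The 11 tables were joined by gene ID into 29221 genes. Of 1341082 values that tables repeat, 0 differed, and a gene absent from a table was set to 0. Rows without a gene name made up 0 of the table, and 0 columns of per-sample values were left without a sample. The check for duplicate libraries found 0 identical pairs. Depth was 15338239 to 22072884 reads, which sets the precision of rare genes such as Mogat2. CPM used TMM factors over all 48 libraries (edgeR 4.0.16, R 4.3.3). Each of 14 pairs of groups was fitted alone, after filterByExpr, by edgeR's quasi-likelihood F test, with Benjamini-Hochberg adjustment over all genes tested. The 3 interaction tests used their 4 groups. SE is the absolute log2 fold change over the square root of F. Alternatives were DESeq2 1.42.0 size factors, the DESeq2 Wald test, no filter, at least 10 counts in every library, all groups in one fit, the replicate block, and leaving out each library. The fits were tested on simulated data.

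All 10 genes are named. Genes most like a member are named, 3 each, for members called in at least 2 labelled knockout comparisons, ranked by Pearson r of log2 CPM among genes that averaged at least 1 CPM. From the other lists, some of the called genes are named and others are not, so a gene left unnamed may have been called. The members and lists were chosen with earlier results of these data known. Promoters came from RefSeq, GRCm38.p6.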

Additional observations from a re-analysis of the deposited data

Results flagged for a closer look

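In 9 of 100 tests of a gene in a group, 1 library lay far from the rest of its group, where chance gives about 1 in 20. Mogat1 was at 0 CPM in labelled knockout HF male replicate 6, against 0.946 to 1.38 CPM in the other 5. In control HFCF male replicate 1, Mogat1 was at 10.2 CPM (3.69 to 5.27 in the others), Agpat2 at 280 CPM (186 to 196) and Lpin3 at 8.55 CPM (11.5 to 13.2). In labelled knockout HFCF female replicate 1, Dgat2 was at 876 CPM (514 to 565), Agpat2 at 241 CPM (159 to 165) and Lpin2 at 189 CPM (331 to 359). Agpat3 was at 236 CPM in labelled knockout HF female replicate 3 (330 to 348), and Lpin1 at 92.5 CPM in control HFCF male replicate 5 (35.9 to 52.2).

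The effect of the labelled knockout on Gpam in males differed between the diets, by 1.07 on the log2 scale (HFCF minus HF, adjusted p = 0.0255, edgeR). That call was lost with all groups in one fit.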

How the results depend on the processing

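No result changed sign once called. Of the 10 genes, the number called kept within 1.5 times its value in 256 of 294 alternative fits. With the DESeq2 Wald test it was 2 against 1 in HFCF males, 1 against 0 in HF females, 1 against 0 for HF against LF in either female group, and 2 against 1 for the male interaction. With all groups in one fit it was 2 against 0 for HF against LF in control females and 0 against 1 for the male interaction. Requiring 10 counts in every library gave 3 against 5 for HFCF against HF in labelled knockout males, where Mogat1 and Mogat2 were no longer tested. The replicate block gave 0 against 1 in HFCF females, 0 against 4 for HFCF against HF in control females and 3 against 5 for HFCF against LF, and it moved no other count of members by over 1.5 times. In no comparison did every same-numbered pair of libraries correlate over 0.1, though single pairs reached r = 0.435 (HF females). The main fits took the mice as unpaired, and these correlations cannot exclude a pairing. The block was not run for the comparisons of the sexes.

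Leaving out 1 library gave 3 to 5 members called in HF males, 1 to 2 in HFCF males and 0 to 1 in HFCF females. It gave 3 to 7 for HFCF against HF in control females, 1 to 4 in labelled knockout females, 3 to 5 in labelled knockout males and 4 to 6 in control males. It gave 4 to 7 for HFCF against LF, 2 to 6 for the sexes on HF, 1 to 2 for the male interaction and 0 to 1 for the sex interaction on HF. Where this left 3 libraries in a group, the spread was still pooled over both groups.

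Counts over all genes moved by over 1.5 times in 95 of 294 fits. Without control HFCF replicate 1, HFCF males called 1052 genes against 324, and without control HF female replicate 1, HFCF against HF in control females called 6530 against 4526. The replicate block called 0 genes there. DESeq2 called 60 genes against 0 in HF females and 80 against 8 in HFCF females. For HF against LF, control females called 638 genes with DESeq2 and 910 with all groups in one fit, against 99, and labelled knockout females 499 and 514, against 22.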
